A study of Caenorhabditis elegans with 4 samples.

Results

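The COH-1 peaks of chromosome III are the 2637 entries assigned to III in a deposited list of 15765 COH-1 binding sites, here called the series list, and no measured value was used to choose them. ChIP-seq, in which DNA bound by a protein is pulled down with an antibody and sequenced, was used to map COH-1 in Caenorhabditis elegans hermaphrodites, described by the labels as young adults that contain a germline. All 4 samples, 2 ChIP and 2 input DNA, came from the strain fem-2(b245)III, grown at 20 °C per the series record, and no other genotype or treatment was compared. The mutated gene, fem-2, which acts in male development and in the making of sperm, is on the chromosome described here, so no wild-type III was measured. Each ChIP sample has a peak list of its own, with 401 peaks on III in replicate 1 and 590 in replicate 2. The labels state no separate cultures for the replicates, so differences between their lists may be technical.

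Cohesin is a ring-shaped protein complex that holds sister chromatids together and extrudes loops of chromatin, and its kleisin subunit closes the ring. COH-1 is one of several kleisins of this worm, beside the mitotic SCC-1 and the meiotic REC-8. C. elegans chromosomes have no single point centromere. Their middle regions are rich in conserved genes and recombine rarely, while the arms towards both ends recombine often and hold more repeats.

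The whole series gives only lists, with no read counts, so the sequencing depth behind each peak is unknown. The score of each peak is the authors' own value, with no stated meaning, and was used only within its list. In replicate 2, 68 of the 590 III peaks share the score 3100 and 9 lie above it, so its strongest peaks are poorly ordered. The inputs entered only through any use the authors made of them. Replicate 2 was deposited under a name that carries a second gene besides the antibody target, and no label explains it. Positions are those of WormBase WS220, and no gene names are given because no annotation of that build was used here.

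Chromosome III carried more COH-1 peaks per length than any other autosome. Across 13.8 Mb, taken to the last peak end in any list, the series list held 191 peaks per Mb. Autosome I followed with 162, then II with 158, IV with 140 and V with 122. III makes up 16.7% of the autosomal length and held 21.1% of the autosomal peaks of the series list, 20.2% of those of replicate 1 and 19.9% of those of replicate 2. Its density was 1.34 times that of the other 4 autosomes pooled in the series list. The ratio was 1.26 in replicate 1, with 29.1 peaks per Mb on III, and 1.24 in replicate 2, with 42.8. III ranked first of the 5 autosomes each time. With 5 autosomes the exact two-sided permutation test of the chromosome label cannot go below p = 0.2. It gave exact p = 0.2 in the series list and 0.4 in both replicate lists, and it could not have passed 0.05 in any list.

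Peaks covered 1.72 Mb of III in the series list, 1.43 Mb in replicate 1 and 1.98 Mb in replicate 2. These are 12.4%, 10.4% and 14.4% of the chromosome, or 12.4 ± 2.81% over the replicate lists (mean ± SD, n = 2). The highest of the other autosomes was I in every list, at 10.5%, 8.37% and 12.8%. Any of the 3 lists marked 18.0% of III as bound, against 11.3% to 15.3% on the other autosomes. Windows of 100 kb without a peak in any list were few on III, at 6 of 137 (4.38%). The shares were 7.24% on II, 7.33% on I, 10.9% on IV and 14.4% on V.

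Along III the peaks were unevenly spread, with a sparse left end, a dense long interior and an intermediate right side with a dense tip. The chromosome was cut into 27 complete windows of 500 kb, numbered from the left end, and a shorter end window of 284 kb. The series count per complete window ran from 36 to 178, with a median of 86. Windows 1 to 6 held 36 to 65 series peaks each, 3 to 8 replicate 1 peaks and 8 to 13 replicate 2 peaks. At window 7 the count rose from 39 to 120 in the series list, from 4 to 18 in replicate 1 and from 9 to 27 in replicate 2. The change was not sharp at a finer scale. The 100 kb from 2900001 to 3000000 had no peak in any list. The 100 kb before it held 19 series peaks, 2 replicate 1 peaks and 6 replicate 2 peaks, and the 100 kb after it held 19, 5 and 3.

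Stretches were then set side by side, with limits chosen after the window counts had been seen, so no test was made. Windows 1 to 6 had 93.3 series peaks per Mb, and 5.70% of their bases lay inside them. Windows 7 to 20 had 234 per Mb and 15.9% of bases. Windows 21 to 27 had 174 per Mb and 10.6%. The shorter end window, with 377 per Mb, was left out of these stretches. By the series list the interior was 2.51 times as dense as the left end, by replicate 1 3.39 times and by replicate 2 2.65 times. Against windows 21 to 27 it was 1.35, 1.26 and 1.08 times as dense. In bases covered the interior stood at 1.50 times windows 21 to 27 by the series list, 1.84 times by replicate 1 and 1.44 times by replicate 2. The left end was sparser than the interior in each list by both measures, and the right side of replicate 2 came close to the interior in number of peaks but not in bases covered.

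**Figure D1:**
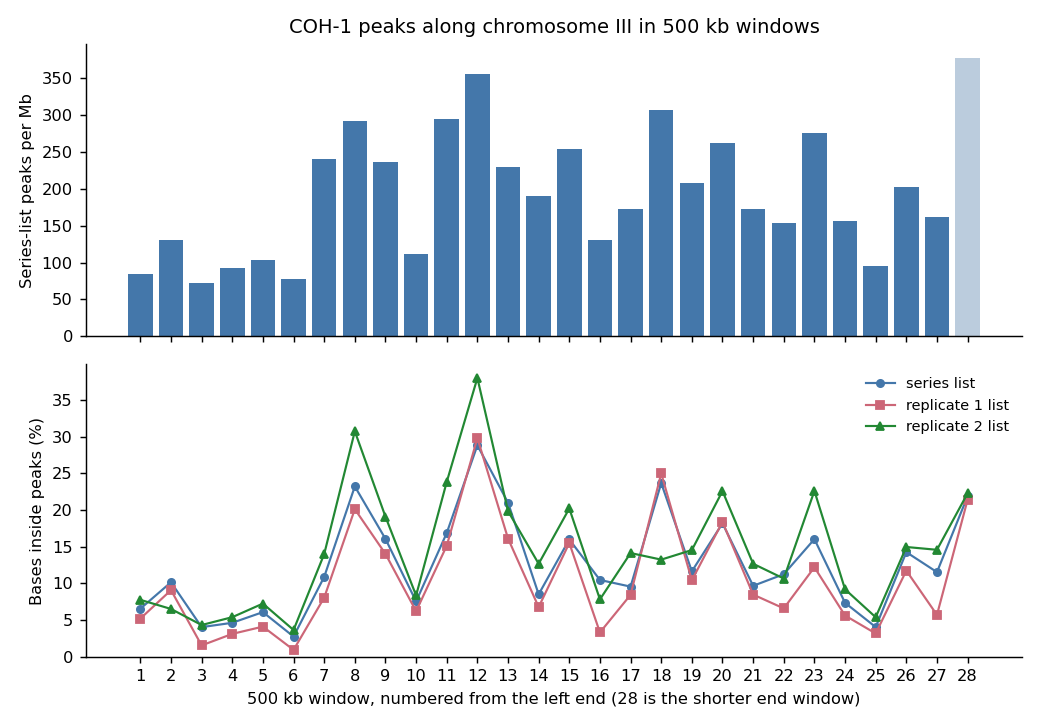
The upper bars give series-list peaks per Mb in each 500 kb window of III, numbered from the left end, with the shorter end window in a paler colour. The lower lines give the percentage of bases inside peaks in each of the 3 lists. Window 12 is the highest in each list, windows 1 to 6 stay at or below 10.2%, with window 2 the highest of them in the series list and replicate 1, and in window 18 replicate 2 lies at 13.2%, the series list at 23.7% and replicate 1 at 25.0%.

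The 3 densest complete windows by series peaks were 12, 18 and 11, with 178, 153 and 147 peaks. Window 12, from 5500001 to 6000000, also led in bases covered, at 28.8% for the series list, 29.8% for replicate 1 and 38.0% for replicate 2. Replicate 1 had its highest count there, 30 peaks, while replicate 2 had its highest in window 8, with 46. The sparsest were windows 3, 6 and 1, with 36, 39 and 42 series peaks. Window 6 had the lowest coverage in all 3 lists, at 2.76%, 0.942% and 3.65%. The interior was itself interrupted by window 10, with 56 series peaks, and window 16, with 65. In window 16 replicate 1 fell to 4 peaks with a median score of 72.2, the lowest window median of that list, and replicate 2 also had its lowest window median score, 134. The end window held 107 series peaks, or 377 per Mb, 16 replicate 1 peaks and 18 replicate 2 peaks, and between 21.4% and 22.3% of its bases were inside peaks.

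Across the 27 complete windows, the number of peaks correlated between the replicate lists at a Pearson's r of 0.81 and a Spearman's rho of 0.87. For bases covered, rho was 0.87 and r 0.86. Windows of 1 chromosome share their libraries and are not independent, so these values describe the maps only. The replicate lists resembled each other less in the size of their peaks: rho was 0.37 for the median width of a window and 0.38 for its median score.

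The middle of III was denser than the mean of its outer parts, but by less than on the other autosomes. With the chromosome divided into 3 equal parts of 4.59 Mb, the series list held 147 peaks per Mb on the left, 228 in the middle and 199 on the right. Replicate 1 held 19.4, 35.3 and 32.6 peaks per Mb, and replicate 2 held 34.2, 45.9 and 48.3. The middle stood above the mean of the outer parts by a log2 ratio of 0.39 by the series list, 0.44 by replicate 1 and 0.16 by replicate 2. On the other autosomes it averaged 0.97 ± 0.25 (SD, 4 autosomes) in the series list, and the lowest of them, IV, stood at 0.76. III ranked last of the 5 in every list (exact two-sided permutation test, p = 0.2 in the series list and 0.4 in each replicate list, with 0.2 the smallest possible). X, left out of this comparison, had a log2 ratio of 0.08 in the series list.

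The smaller contrast of III came with dense outer parts, not with a sparse middle. Its outer parts averaged 173 series peaks per Mb, the highest of the autosomes, while I had 130, II 118, IV 113 and V 81.4 (exact permutation p = 0.2). X, outside this ranking, had 175 on its left part and 190 on its right. The middle part of III, at 228, lay inside the range of the other autosomes, 192 to 237, and ranked second (exact permutation p = 0.8). In the replicate lists the outer parts of III were again the densest of the autosomes, at 26.0 and 41.2 per Mb. The middle ranked in the centre of the 5 (exact permutation p = 0.4 for the outer parts in both, 1 and 0.8 for the middle). The left part of III ended at 4594577, so it took in windows 7 to 9 of the dense interior. The right part began at 9189155 and took in window 20. Windows 1 to 6 alone had 93.3 series peaks per Mb. This split into outer and middle density was added after the ratio had been seen.

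**Figure D2:**
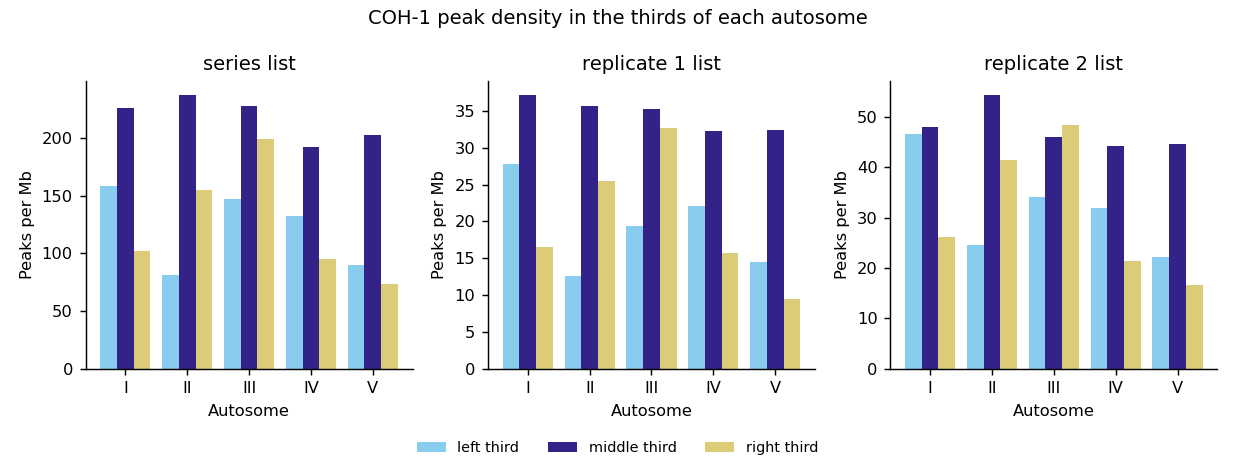
Bars give peaks per Mb in the left, middle and right of 3 equal parts of each autosome, 1 panel per list, with axes that start at 0. On III the right part reaches 199 per Mb in the series list, and in replicate 2 it stands at 48.3 against 45.9 in the middle.

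The outer parts of III also differed from each other. The right part exceeded the left by a log2 ratio of 0.44 by the series list, 0.75 by replicate 1 and 0.50 by replicate 2. II leaned the same way more strongly, at 0.93 in the series list, while I, IV and V leaned to the left, at -0.63, -0.48 and -0.29. III ranked second in each list, inside the spread of the autosomes (exact permutation p = 0.8 for the series list, 0.4 for replicate 1 and 0.6 for replicate 2). Median series width was 305 bp on the left, 313 bp in the middle and 336 bp on the right of III, and median series score was 5.80, 5.38 and 6.11. In the series list the middle was thus densest without having the widest or highest-scoring peaks. In the replicate lists the middle did hold the widest peaks, with medians of 2492 bp against 1911 bp on the left and 1952 bp on the right in replicate 1, and of 2099 bp against 1620 and 1542 bp in replicate 2.

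Most series peaks of III were narrow. Their median width was 317 bp, 25% were at most 206 bp and 25% at least 616 bp, and the narrowest was 146 bp. Of the peaks under 500 bp, 615 were under 200 bp and 1209 had from 200 to under 500 bp. Another 463 had from 500 to under 1000 bp and 314 from 1 to under 5 kb. Only 36 were 5 kb or wider, or 1.37%, against 1.36% of all series peaks. These 36 held 16.0% of the bases in III peaks. Width and score rose together across the III peaks of each list, with Spearman's rho of 0.71 for the series list, 0.85 for replicate 1 and 0.89 for replicate 2, values close to those of the other autosomes.

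The replicate lists gave wider III peaks relative to the other autosomes, while the series list did not. In the series list the III median of 317 bp lay between V at 315 bp and I at 327 bp. In replicate 1 the III median was 2230 bp, above all other autosomes, whose medians ran from 1830 to 2070 bp. In replicate 2 it was 1756 bp, against 1498 to 1630 bp elsewhere (exact permutation p = 0.6 in the series list and 0.2, the smallest possible, in each replicate list). Peaks of 5 kb or wider made up 88 of 401 on III in replicate 1 (21.9%), against 15.7% of that whole list and 14.1% to 16.1% on the other autosomes (exact permutation p = 0.2). In replicate 2 they were 91 of 590 (15.4%), against 14.6% of the whole list and up to 16.0% on V (exact permutation p = 0.6). The excess of broad peaks was thus a feature of the replicate 1 list and was near the background in replicate 2.

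**Figure D3:**
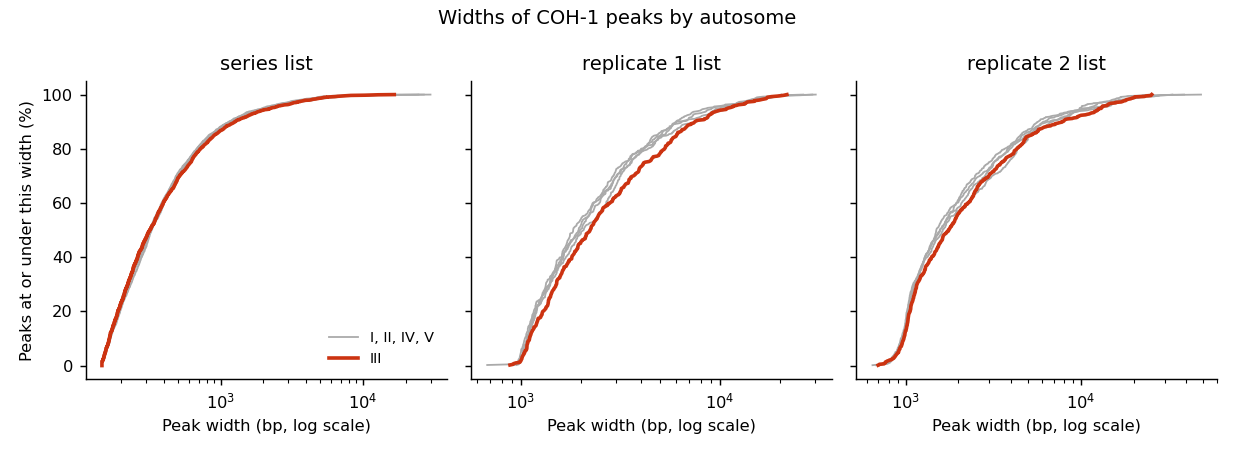
Each line gives the percentage of peaks at or under a width (log axis, bp) on 1 autosome, with III in red and I, II, IV and V in grey, 1 panel per list. The III line runs with the others in the series list and to the right of them over most of its course in replicate 1, where the III median is 2230 bp.

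Scores of III peaks were at or near the top of the autosomes. The median was 5.69 in the series list, where the other autosomes ran from 5.21 to 5.77 (exact permutation p = 0.6). Relative to the median of its own list, the III median was 1.16 in replicate 1 and 1.21 in replicate 2, the highest autosome in both (exact permutation p = 0.2 and 0.4).

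Series peaks of III lay close together, much as on the other autosomes. The median distance between neighbouring series peaks was 453 bp, against 451.5 bp on V to 476 bp on I. On III 25% of distances were at most 169 bp and 25% at least 1395 bp. At most 5 kb separated 2292 of 2636 neighbours, or 86.9%, compared with 83.9% to 86.6% on the other autosomes (exact permutation p = 0.4). The share within 1 kb, 69.3%, was also the highest of the autosomes. In the wider peaks of replicate 1 the median distance was 4198 bp, and the other autosomes ran from 2758 to 5054 bp. In those of replicate 2 it was 2449 bp, and the others ran from 2322.5 to 3584 bp. The shares within 5 kb, 52.0% and 59.6%, ranked next to last among the autosomes (exact permutation p = 0.8 and 1). Within 1 kb, III had 36.8% in replicate 2, the highest of the autosomes, where the others ran from 34.8% to 36.6%, and 31.0% in replicate 1, where they ran from 29.3% to 35.3%. Distances between series peaks were smallest in window 13, with a median of 317 bp, and largest in window 4, with 1155 bp.

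Some neighbouring series peaks are pieces of what the replicate lists give as 1 peak. Of the replicate 1 peaks on III, 303 of 401 (75.6%) overlapped 2 or more series peaks, against 67.6% to 72.4% on the other autosomes. Of the replicate 2 peaks 371 of 590 (62.9%) did, against 57.9% to 63.1%. The most divided was a replicate 2 peak of 12134 bp at III:9818432-9830565, which held 16 series peaks. When series peaks at most 1 kb apart were joined, III had 810 regions, 58.8 per Mb, still the most per length of the autosomes, where I followed with 53.7. Of these regions, 416 (51.4%) consisted of a single peak, within the 50.5% to 55.0% of the other autosomes. When peaks up to 5 kb apart were joined, 345 regions remained, and the 101 with 10 or more peaks held 1951 of the 2637 series peaks (74.0%), close to IV at 73.3% and above V, the lowest, at 64.0%.

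The longest stretches of III without a peak in any list were shorter than those elsewhere. They spanned 197 kb at III:96869-294001, 192 kb at III:1020619-1212447 and 161 kb at III:12669087-12830305, the first 2 of them within the sparse left end. On I, II, IV and V the longest such stretch ran from 275 to 462 kb.

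Overlap with the replicate lists on III was close to that of the series list as a whole. Of the 2637 III peaks, 954 were overlapped by at least 1 bp in both replicate lists, which is 36.2% (exact Clopper-Pearson 95% interval 34.3 to 38.0, which covers counting error only and treats neighbouring peaks as independent), against 36.2% of all series peaks. A further 181 (6.86%) were overlapped by replicate 1 alone, against 6.45% of all, and 792 (30.0%) by replicate 2 alone, against 29.6%. The remaining 710 (26.9%) were in neither, against 27.8%. On the other autosomes the share in both averaged 35.4 ± 2.13% (SD, 4 autosomes; exact permutation p = 0.8). These overlaps are not independent support, because the same reads may lie behind the series and replicate lists.

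Overlap on III varied with score, width and place. In the 25% of III peaks with the lowest series scores, 14.7% were in both replicate lists and 45.0% in neither. In the 25% with the highest scores, 71.2% were in both and 7.13% in neither. By width, 11.2% of III peaks under 200 bp were in both lists, 63.5% of those from 500 to under 1000 bp and 80.3% of those from 1 to under 5 kb. Wide peaks meet others more easily by chance, and score and width were not separated. These shares were worked out for III only. On I, II, IV and V, peaks in both lists were also wider than those in neither, with medians of 584 to 611 bp against 210 to 217.5 bp. They also scored higher, with medians of 8.45 to 8.95 against 3.93 to 4.29. Of the 36 series peaks of 5 kb or wider, 25 were in both lists, 4 in replicate 1 alone, 1 in replicate 2 alone and 6 in neither. In windows 1 to 6, 19.6% of series peaks were in both lists (exact 95% interval 15.2 to 24.8), compared with 40.6% in windows 7 to 20 (38.2 to 43.0). These intervals cover counting error only and treat neighbouring peaks as independent. The stretches were chosen after the counts of the same lists had been seen. Peaks of both replicate lists covered fewer bases in windows 1 to 6, so a lower share there was partly built in. A difference beyond that was not tested. Window 12 had the highest share in both, 55.1%, and window 6 the lowest, 10.3%. Among the complete windows these also had the highest and the lowest coverage in each replicate list.

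Between the replicates, 359 of the 401 replicate 1 peaks of III were overlapped in replicate 2 (89.5%, exact 95% interval 86.1 to 92.3), against 87.1% over the whole replicate 1 list. In the other direction 302 of 590 replicate 2 peaks were overlapped (51.2%, 47.1 to 55.3), against 51.2% over the whole replicate 2 list. The other autosomes averaged 87.0% and 48.9% (exact permutation p = 0.4 and 0.2, the latter the smallest possible). The lists shared 1.21 Mb of III, or 84.1% of the sequence called in replicate 1 and 60.8% of that called in replicate 2. All 401 replicate 1 peaks of III were touched by a series peak, against 99.8% over its list, and 571 of 590 replicate 2 peaks (96.8%), against 96.8%. With the replicate 2 peaks of III in 4 equal groups of rising score, 12.8%, 30.6%, 65.3% and 95.9% were found in replicate 1. In replicate 1 the lowest of 4 such groups was found least often, at 82.2%, and the next 3 at 92.0%, 94.0% and 90.0%. Replicate 2 peaks without a partner had a median width of 1163 bp and a median score of 157, and those with one 3318 bp and 1377.

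Series peaks overlapped by replicate 1 alone were gathered in few windows. These are counts of series peaks, and 1 replicate 1 peak can hold many of them. In window 2, 1 unmatched replicate 1 peak overlapped 14 series peaks. Of the 181 series peaks of III overlapped by replicate 1 alone, 54 lay in window 18, 20 in the end window and 19 in window 2, together 51.4%. Outside these 3 windows, 88 of 2312 series peaks (3.81%) were overlapped by replicate 1 alone. Window 18 also held 13 of the 42 replicate 1 peaks of III that replicate 2 did not find. By this count it stood alone. Windows 2 and 26 and the end window held 3 each, and no other window held more. Only 11 of its 24 replicate 1 peaks had a partner (45.8%), while 348 of 377 (92.3%) had one in the rest of III. These windows were singled out after their values had been seen.

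**Figure D4:**
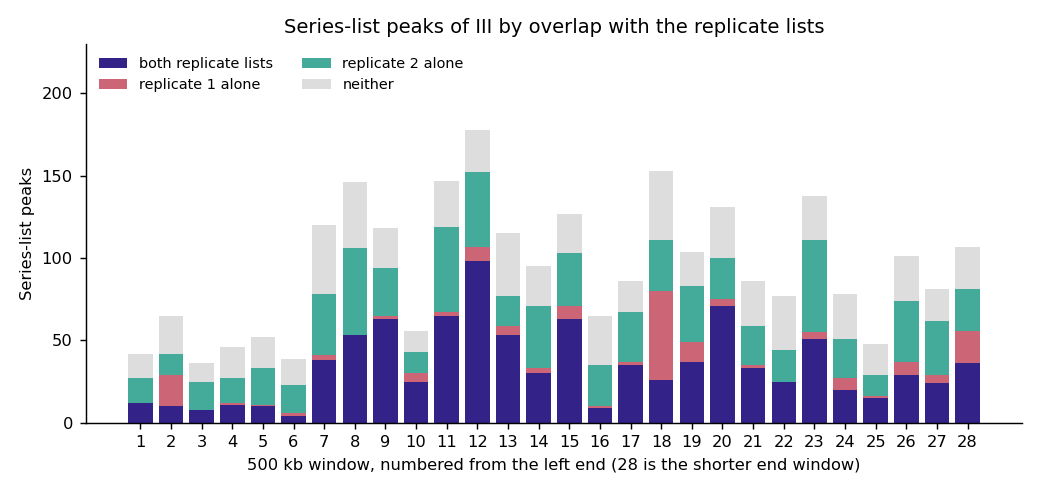
Stacked bars give the number of series peaks in each 500 kb window of III that were overlapped by both replicate lists, by 1 of them, or by neither. Peaks in replicate 1 alone number 54 in window 18 and 19 in window 2, and at most 12 in every other complete window.

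The centre of this disagreement was the largest cluster of peaks on III, 101 kb at III:8714742-8815830, where 77 series peaks followed each other at distances of at most 5 kb. Series peaks covered 58.9% of it, replicate 1 peaks 63.7% and replicate 2 peaks 26.4%. Of the 77 series peaks, 34 were overlapped by replicate 1 alone, 15 by replicate 2 alone, 11 by both and 17 by neither. From 8774207 to 8811954, over 37.7 kb, replicate 2 had no peak, while 5 replicate 1 peaks covered 85.9% of the stretch and series peaks 79.2%. Within that stretch lay the strongest replicate 1 peak of III without a partner, 5462 bp at III:8791084-8796545, which had rank 12 by score among the replicate 1 peaks of III. Replicate 2 did call part of the left side of the cluster, with a peak of 14296 bp at the score of 3100. From 5.40 kb after the left end of the cluster up to that peak it had none, and 2 replicate 1 peaks there, of 3937 and 8567 bp, had no partner.

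**Figure D5:**
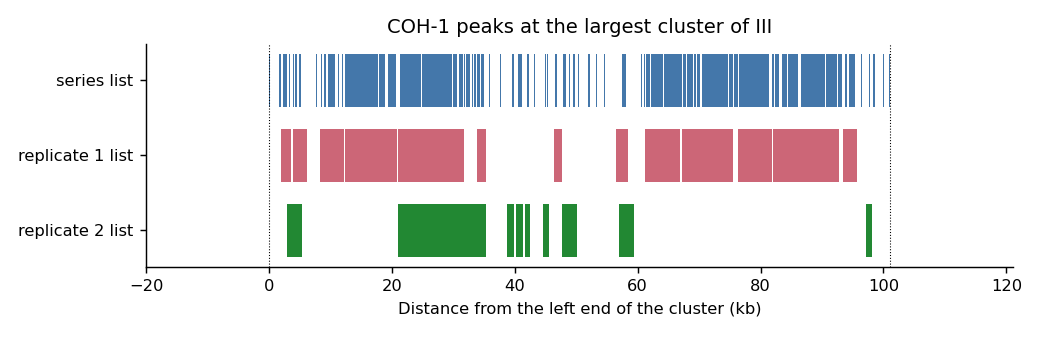
Blocks mark peaks of the 3 lists along the largest cluster of III, by distance from its left end in kb, with dotted lines at its ends. Replicate 2 has no block over the 37.7 kb in which replicate 1 peaks cover 85.9% and series peaks 79.2% of the bases.

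For the next largest clusters only the bases covered by each list were compared. One of 46 series peaks over 54.3 kb in the end window, III:13514537-13568820, was covered by replicate 1 to 46.5% and by replicate 2 to 67.6%. One of 43 series peaks at III:6114638-6182568 was covered to 65.4% and 74.4%. Those of 42 peaks at III:6958719-7008974 and of 38 at III:11650251-11697133 were covered to 34.7% and 28.7% in replicate 1, and to 61.7% and 48.8% in replicate 2. In all 4, replicate 2 covered more than replicate 1, as it did over III as a whole, at 14.4% against 10.4%.

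The 10 highest-scoring series peaks of III lay in all 3 parts of the chromosome, 3 on the left, 4 in the middle and 3 on the right. Of these, 8 were overlapped in both replicate lists and 2 in replicate 2 alone. The first of them, III:12609976-12620299, scored 143, well above the second, III:353768-360792, at 85.8. The latter stands in the sparse left end and was matched by a replicate 1 peak of 7592 bp, of rank 4 by score among those of III, and by a replicate 2 peak of 20176 bp. The third, III:13053083-13065926, scored 74.8 and had no replicate 1 peak within 13796 bp, although replicate 2 covered it with its widest peak of III, 25353 bp. The fourth, III:10719871-10724007, scored 74.4 and stood at 3100 in both replicate lists.

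The remaining sites of the 10 differed more between the lists. III:6551174-6552208 was only 1035 bp wide and scored 72.0, with a replicate 1 score of 290 and a replicate 2 score of 3100. III:3948699-3958903 and III:5933613-5949136 scored 68.7 and 68.2 and had peaks of 17 kb or more in both replicate lists. III:5497488-5500567 scored 64.3. Replicate 1 gave its peak over that site a score of 50.7, among the lowest on III, while replicate 2 gave its own the highest score on III, 3228. III:3800964-3806109 scored 63.5 inside a replicate 1 peak of 21019 bp that scored 141. The last, III:8043688-8044011, was 324 bp wide with a score of 62.7, and the nearest replicate 1 peak was 61151 bp away. Rank by series score therefore did not carry over to replicate 1 for several of these sites.

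Among the 5 widest series peaks of III, the first, 16663 bp at III:6352231-6368893 with a score of 24.3, was in neither replicate list. The nearest replicate 2 peak lay 1001 bp from it and the nearest replicate 1 peak 44307 bp. The next were the sites at 5933613 and 13053083 given above, of 15524 and 12844 bp. The last 2 were 11684 bp at III:883318-895001 and 11532 bp at III:9613597-9625128, both overlapped in both replicate lists.

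The strongest III peaks found in 1 replicate were overlapped by series peaks, as were nearly all replicate peaks of III. After the site in window 18, the replicate 1 peaks of highest score without a partner were III:12567112-12572812 (score 1103) and III:8868822-8872630 (938), with the nearest replicate 2 peaks 1331 and 8077 bp away. In replicate 2 they were III:13050543-13075895 and III:3109565-3117563, both at 3100, and III:2877663-2881889 (2232). Replicate 1 peaks came as near to them as 3827, 2206 and 919 bp. Series peaks covered 91.4% to 95.4% of the 3 replicate 1 regions, against 79.8% of all replicate 1 peak bases of III. They covered 51.9% to 89.6% of the 3 replicate 2 regions, against 65.6% of all replicate 2 peak bases of III. The widest unmatched replicate 1 peak of III, 19896 bp at III:827804-847699 in window 2, scored only 87.2 and held 14 series peaks; it was picked out after its values had been seen.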

How the data were processed

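COH-1 ChIP-seq was described from 3 deposited peak lists, 1 for each ChIP sample and 1 for the series. Per the labels' protocols, ground worms were crosslinked with EGS (20 minutes), then with formaldehyde added (10 minutes). Alignment used BWA and ce10, per the submitters' processing notes; per the file headers, the build is WormBase WS220. The files name MACS as caller of the replicate lists and MACS v2 of the series list, so widths and counts were compared within a list. The score in each deposited list is the authors' peak score, and neither its meaning nor the thresholds, input use or pooling are given in the sources used here.

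Positions, widths, distances and overlaps (1 bp or more) were computed in Python 3.11.15 (SciPy 1.17.1, pandas 2.3.3, NumPy 2.4.6), with figures by matplotlib 3.10.9, after the functions had been checked on simulated lists. A peak belongs to the window or part that holds its centre. III was compared with I, II, IV and V by permuting the chromosome label over 5 autosomes (exact, two-sided: the share of autosomes at least as far from the mean of the other 4 as III), so these p-values cover the spread between chromosomes only. Named sites were the 10 highest-scoring and 5 widest series peaks, and the 3 highest-scoring unmatched peaks of each replicate. Windows and stretches without peaks were named 3 at a time. The sites, lists and tests were chosen with earlier results of these data known. Alternatives were each list alone, a score filter, joined peaks, other divisions, distances and overlaps.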

Additional observations from a re-analysis of the deposited data

How the results depend on the processing

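Of 57 alternatives to 12 comparisons of III with the other autosomes, 9 reversed the direction and none passed the 0.05 threshold, which this test cannot reach. The density ratio of III stayed between 1.21 and 1.37 and III ranked first in all 8 settings. The difference in middle-to-outer log2 ratio, III minus the mean of the others, stayed between -0.61 and -0.45. The median width difference of -4.50 bp in the series list became 23.6 bp for the upper 50% of scores, 33.2 bp for peaks in both replicate lists, 33.4 bp for peaks joined within 1 kb, and 187 to 272 bp with either replicate list alone. The share of neighbours within 5 kb, 1.41 percentage points higher on III, became -0.061 for peaks in both replicate lists and ran from -2.25 to 0.67 with the replicate lists alone. The share in both replicate lists, 0.80 points higher, became -0.57 when overlap had to reach 50% of both peaks, a rule that left 1.90% of III peaks in both. The middle density of III, 13.1 peaks per Mb higher, ran from -1.87 to 0.86 with the replicate lists alone, without replicate 1 and without replicate 2. The broad-peak and outer and middle density comparisons were added after the data were seen. No paired analysis was possible because the inputs that share the replicate numbers had no lists here and the results rest on no test between samples. Depth is unknown, so a peak absent from a list may be below that list's threshold.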
